A study of Mus musculus with 8 samples.

Results

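The FOS and BATF family genes are described here by the chromatin contacts of their start sites. The members are Fos, Fosb, Fosl1, Fosl2, Batf and Batf3, which are 6 of the 21751 protein-coding genes of the GENCODE annotation of the mouse genome build GRCm39. They were chosen by name. A loop counts as theirs when 1 of its bins of 5 kb holds the start site of the gene's canonical transcript. Over 4 lists of significant interactions they had 59 different loops, of 214313 in all. The p30 lists held 22 (UT) and 29 (LPS) of them, and the p42 lists 45 (UT) and 30 (LPS).

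The contacts were measured by HiChIP with an antibody against H3K27ac, the acetylation found at promoters and enhancers in use. Here crosslinked chromatin was digested, pieces with the mark were bound by the antibody, and neighbouring ends were then ligated and sequenced. The cells were HPC-7, a mouse hematopoietic progenitor cell line with very little CEBPA of its own. They expressed either p42, the full-length isoform of the transcription factor CEBPA, or p30, its N-terminally shortened isoform. Both lines came from retroviral transduction. The study's methods describe transgenes fused to ERT2, which enter the nucleus with 4-hydroxytamoxifen, and also constitutive ones, and the labels do not say which line was used for HiChIP. Cells were untreated (UT) or exposed for 2 h to lipopolysaccharide (LPS), the ligand of TLR4, at 100 ng/mL. There were 4 groups with 2 replicates each, 8 samples in all, and the authors deposited 1 list per group with both replicates pooled. No spread between replicates could be measured, so each test below compares pooled libraries and not the conditions. All intervals are 95% Wilson intervals and cover counting error only. Where 4 values stand in a row, the p30 lists come before the p42 lists and UT before LPS.

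FOS proteins pair with JUN proteins through a leucine zipper to form AP-1, which binds the sequence TGANTCA and drives immediate early and inflammatory genes. Fos and Fosb are textbook immediate early genes, whose promoters carry a CArG box, the sequence bound by serum response factor. Fosl1 and Fosl2 encode the FOS-related antigens FRA1 and FRA2, which lack the strong activation domain of FOS. BATF and BATF3 are small zipper proteins that also pair with JUN, and they act with IRF factors in lymphoid and dendritic cells.

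The sequences upstream of the start sites differ between the members. In 1000 bases upstream, read from the GRCm39 genome, both strands were searched for AP-1 (TGANTCA), CRE (TGACGTCA), C/EBP (TTGCNNAA), C/EBP-ATF (TGATGCAA) and the CArG box. Fos had 3 matches, Fosb, Fosl1 and Batf had 1 each, and Fosl2 and Batf3 had 0. The CArG boxes of Fos and Fosb start 303 and 266 bases upstream, and such a match is found in 5.66% of the 21746 upstream stretches of protein-coding genes. The other matches of Fos were an AP-1 match 456 bases upstream (in 24.1% of stretches) and a C/EBP match 891 bases upstream (in 35.5%). Batf had a CRE match 641 bases upstream, which 2.21% of stretches hold. Fosl1 had a C/EBP match 932 bases upstream. The stretches around the CArG boxes and the CRE are shown on the strand of the gene, with the match in capitals. They lie at chr12:85520338-85520637 (plus strand), chr7:19044167-19044266 (minus strand) and chr12:85732763-85732812 (plus strand).
Fos: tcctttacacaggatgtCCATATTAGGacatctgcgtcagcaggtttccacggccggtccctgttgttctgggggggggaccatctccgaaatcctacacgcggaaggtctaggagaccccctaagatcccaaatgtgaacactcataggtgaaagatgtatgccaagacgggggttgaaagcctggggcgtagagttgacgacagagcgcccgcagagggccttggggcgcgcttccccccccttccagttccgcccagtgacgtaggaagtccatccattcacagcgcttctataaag
Fosb: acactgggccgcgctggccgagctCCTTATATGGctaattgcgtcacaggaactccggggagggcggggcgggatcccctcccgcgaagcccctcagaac
Batf: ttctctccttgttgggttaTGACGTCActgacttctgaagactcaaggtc

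Distal bins joined to Fos, Batf and Fosl2 also hold AP-1 and C/EBP matches, shown because the coverage of these bins is described below; the bins were picked after their values were seen. Each is on the plus strand with 20 bases on either side, at chr12:85428629-85428675 and chr12:85435516-85435562 for Fos, chr12:85753107-85753153 and chr12:85750709-85750756 for Batf, and chr5:32350393-32350439 for Fosl2. Capitals mark the match.
Fos, 95 kb upstream, AP-1: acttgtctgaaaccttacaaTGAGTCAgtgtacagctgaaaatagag
Fos, 85 kb upstream, AP-1: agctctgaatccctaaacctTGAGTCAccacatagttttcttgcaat
Batf, 20 kb downstream, AP-1: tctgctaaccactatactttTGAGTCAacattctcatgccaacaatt
Batf, 20 kb downstream, C/EBP: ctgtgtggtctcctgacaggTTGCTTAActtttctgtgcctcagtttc
Fosl2, 60 kb downstream, AP-1: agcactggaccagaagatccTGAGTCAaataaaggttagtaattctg

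A match of this length is common in 5 kb. Of the 59 partner bins, 50 held an AP-1 match (84.7%, against 77.4% of all 64967 peak bins) and 47 a C/EBP match (79.7%, against 85.8%). For Fos alone AP-1 was in 14 of 20 partner bins (70%) and C/EBP in 17 (85%). The Fos bins 90, 100 and 105 kb upstream, which are not shown, held no AP-1 match. The bin at 100 kb held none of the motifs searched. The C/EBP-ATF sequence was in 7 partner bins (11.9%, against 11.6%), none of them a partner of Fos. These shares are descriptions and were not tested.

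The lists hold progenitor chromatin. All 8 progenitor genes examined (Kit, Gata2, Tal1, Lyl1, Lmo2, Runx1, Erg and Fli1) had loops in all 4 lists. Cd3e, Alb and Col1a1, genes of other cell types, had no loop in any list. The contacts in the caller's model, used as depth, numbered 14503330 to 18999991 per list. Peak bins had a mean of 2406 and 2239 reads for p30 (UT and LPS) and of 2911 and 1939 for p42. Other bins had 609, 393, 456 and 471. Peak bins thus stood out most from other bins in p42 UT and p30 LPS. Contacts scaled by depth are not corrected for this difference. The p42 UT list was the longest, with 158233 loops against 78591 to 94609 in the others, and counts of loops per gene were repeated with lists cut to 78591 loops by q-value. Start-site bins of the members other than Batf3 were flagged as H3K27ac peaks.

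Fos had the most loops of the 6 genes in every list. Batf3 had the fewest in all lists but p42 LPS, where Fosl1 did. Fos had 13 and 12 loops for p30 (UT and LPS) and 19 and 14 for p42. Fosb had 3, 7, 6 and 3 in this order, and Fosl1 3, 2, 6 and 2. Fosl2 had 1, 3, 11 and 5. Fos thus had a similar number in every list but p42 UT, whereas Fosl2 ranged from 1 to 11. Batf had 2, 4, 3 and 3 loops, and Batf3 had 0, 1, 0 and 3.

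In untreated cells p42 exceeded p30 in the number of loops for 5 of the 6 members and for 79% of the 10513 genes with any loop, so this count is near the background of a longer list. No member had fewer, against 7.95% of genes. In lists of equal size it was 4 of 6, against 38.3% of genes, and 1 of 6 had fewer, against 34.6%. Fos then had 13 loops in p30 UT and 17 in p42 UT, and Fosl2 1 and 4. Batf turned, from 2 and 3 loops to 2 and 1. After LPS 3 members had more loops in p42 (20.6% of genes) and 2 had more in p30 (51%). LPS itself went with more loops for 4 members in p30 (47% of genes) and fewer for 2 (24.4%). In p42 it went with more loops for 1 member, Batf3 (4.27%), and fewer for 4 (82.6%). In lists of equal size that split was 3 (28.3%) and 3 (41.3%), while the counts for LPS in p30 and for p42 against p30 after LPS stayed as they were. The shares of genes given beside those counts are for the lists as deposited, where p30 LPS is longer than p30 UT and p42 LPS.

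**Figure D1:**
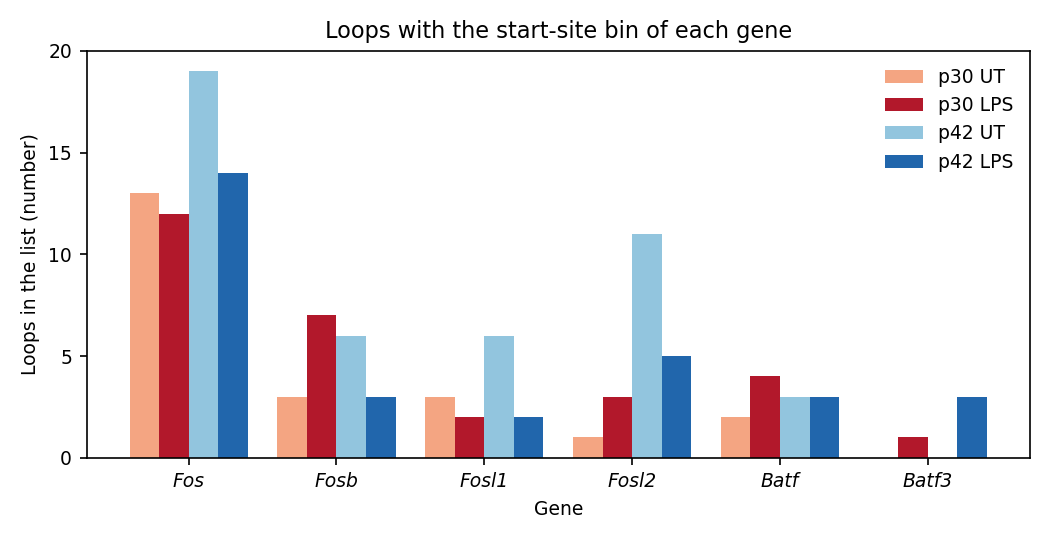
Number of loops (vertical axis) with the start-site bin of each gene (horizontal axis) in the 4 lists as deposited, 1 bar per list. Fos leads with 12 to 19 loops, Fosl2 goes from 1 in p30 UT to 11 in p42 UT, and Batf3 has bars in both LPS lists alone.

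Of the 59 loops, 12 were in all 4 lists, a share near the 17.7% of all promoter loops. Absence from a list means only that the pair was not called there. These 12 were 8 of Fos and 1 each of Fosb, Fosl1, Fosl2 and Batf. The p42 UT list alone held 16 of the 59, against 27.6% of all promoter loops. Both p42 lists and neither p30 list held 3 (5.13% of promoter loops), namely the Fos loops to the bins 110 kb upstream and 10 kb downstream and a Fosl2 loop 65 kb downstream. Both LPS lists and neither UT list held 2 (1.18%), 1 of Batf and 1 of Batf3. Both p30 lists and neither p42 list held 1 (1.53%), from Fosb to a bin in Vasp.

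Fos lies at chr12:85520658-85524047 on the plus strand. It had 20 partner bins, of which 19 lay upstream, 20 to 140 kb away, and 1 lay 10 kb downstream. They run over Tmed10, a cargo receptor of vesicles between the endoplasmic reticulum and the Golgi, and Nek9, a mitotic kinase, and then over stretches with unnamed non-coding genes. Start sites of annotated genes were in 9 of the 20, but of protein-coding genes in 2, Nek9 at 135 kb and Tmed10 at 100 kb.

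Fos was joined to the bins 85 to 105 kb upstream in every list, with several times the expected contacts. The bin at 105 kb had 28 and 26 contacts for p30 (UT and LPS) and 23 and 20 for p42. The bin at 95 kb had 18, 12, 43 and 27 contacts, and the bin at 100 kb had 15, 22, 39 and 21. The first of these was about level over the lists, and the others were highest in p42 UT. The caller expected 1.85 to 2.49 contacts for the bin at 95 kb, given its distance and coverage, so that 6.48 to 17.2 times the expected number were observed. The bin at 85 kb had 22, 22, 39 and 18 contacts. Over all loops of Fos observed contacts were a median of 7.03 and 7.53 times the expected in the p30 lists, and 8.41 times in both p42 lists. In all promoter loops the median was 4.56 to 4.67. These lay at a median distance of 45 to 50 kb, against 90 to 102.5 kb for the Fos loops. Relative to the expected number, the limit for listing is higher at long distance. By the estimate given below, a Fos pair in p30 LPS needed 9 contacts at 135 kb, where 1.61 were expected. At 10 kb it needed 39, where 20.3 were expected. A comparison at equal distance was not made.

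**Figure D2:**
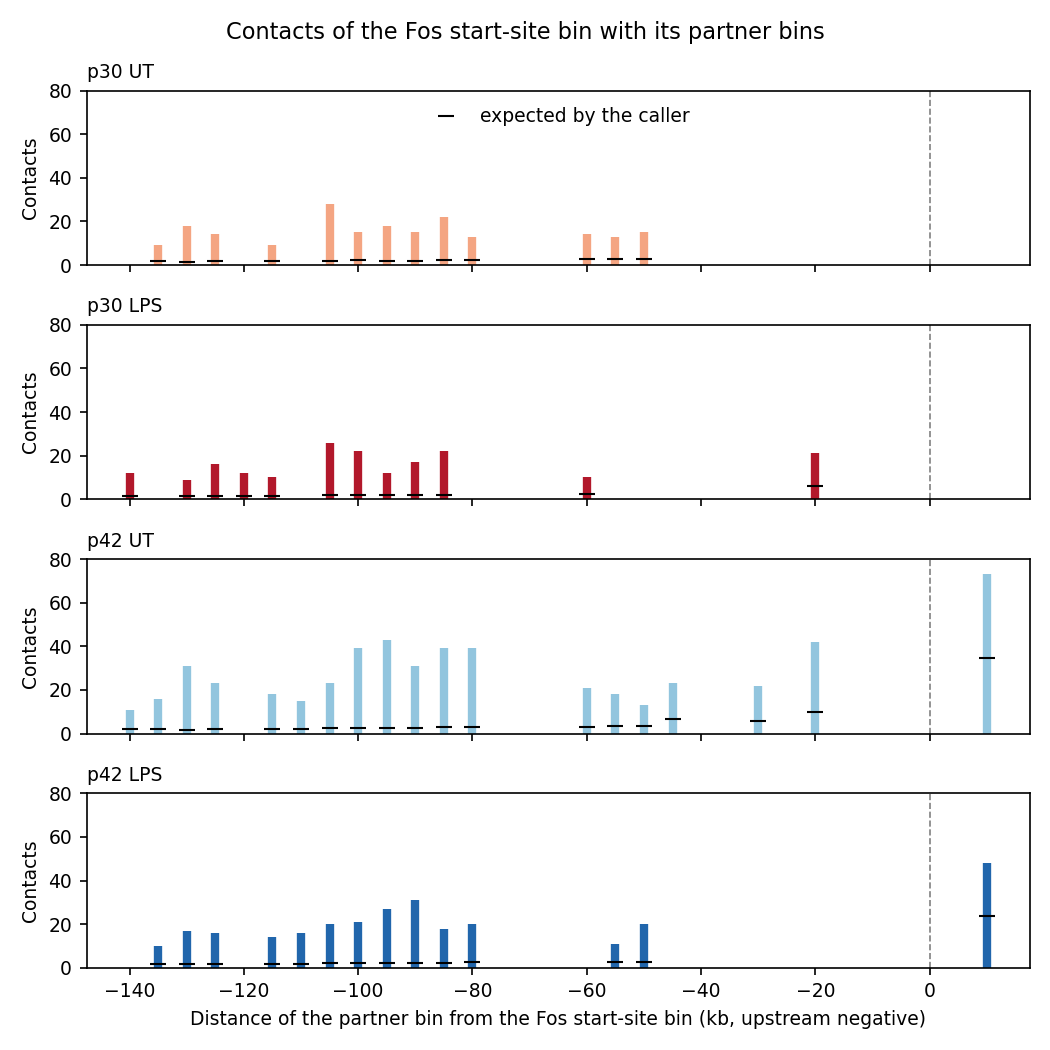
Contacts of the Fos start-site bin with each partner bin (vertical bars, number of contacts) by distance in kb, upstream negative, in the 4 lists, with the caller's expected number as a black dash. Bars are drawn for listed loops only. In all lists the bars 85 to 105 kb upstream rise far above the dashes, and the bar 10 kb downstream, with 73 and 48 contacts, is drawn in both p42 lists alone.

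At the 8 Fos loops in all 4 lists, contacts summed to 139 and 134 for p30 (UT and LPS) and to 247 and 164 for p42. The p42 UT list held 64.0% of the contacts of both UT lists (95% interval 59.1 to 68.6), where the modelled contacts would give 51.4%, a log2 ratio of 0.75. With the caller's expected counts as the basis, which take account of coverage, the value to exceed was 54.7% and the log2 ratio 0.56. After LPS the p42 share was 55.0% (49.4 to 60.6) against 52.2%, an interval that includes the modelled share. In p30 the LPS share was 49.1% (43.2 to 55.0) against 44.7%. In p42 it was 39.9% (35.3 to 44.7) against 45.5%, below the modelled share.

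The 12 loops in all 4 lists were also tested one at a time with an exact binomial test, two-sided, with Benjamini-Hochberg adjustment over all 31032 loops present in every list. In untreated cells 2 of the 12 had more contacts in p42 (10.7% of all such loops), and none had more in p30 (0.126%). They were the Fos loops to the bins 100 kb upstream (15 contacts in p30 and 39 in p42, exact binomial test, adjusted p = 0.0287) and 95 kb upstream (18 and 43, adjusted p = 0.0329). The Fosb loop 35 kb upstream, to the bin of the Ercc1 start site, had 18 and 39 contacts (exact binomial test, adjusted p = 0.0833). With null shares from the expected counts none of the 12 passed.
After LPS 0 of the 12 passed the exact binomial test between p30 and p42 (2 at an unadjusted p below 0.05, smallest adjusted p = 0.338). Of all loops 0.267% were higher in p42 and 2.35% in p30. LPS against UT in p30 gave 1 of 12 that was higher (3.89% of all loops) and 0 lower (0.0387%). It was the Batf loop 20 kb downstream, with 25 contacts untreated and 49 after LPS (exact binomial test, adjusted p = 0.0126), which was not called with null shares from the expected counts. LPS against UT in p42 gave 0 of 12 in the exact binomial test (1 at an unadjusted p below 0.05, smallest adjusted p = 0.295), with 0.087% of all loops higher and 3.58% lower. The 4 comparisons share lists and are not independent of each other.

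A pair missing from a list has an unknown number of contacts below the caller's limit. That limit was estimated from listed loops of similar distance and coverage. For 111 listed loops of the members the expected number was 0.986 to 1.05 times such an estimate. The Fos loop 10 kb downstream, with 73 and 48 contacts in the p42 lists (UT and LPS), would have been listed from 43 contacts on in p30 UT and from 39 on in p30 LPS. The Fos loop 80 kb upstream had 13 contacts for p30 UT and 39 and 20 for p42. In p30 LPS it would have been listed from 10 on. If these pairs were tested and the estimate holds, both had fewer contacts in the lists that lack them than in those that have them.

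Coverage, the number of reads in a bin, was set relative to the mean coverage of peak bins in the same list. That mean was 1939 to 2911 reads. Relative coverage stands for the H3K27ac enrichment of the bin in these libraries. The start-site bin of Fos had a relative coverage of 1.20 and 1.36 for p30 (UT and LPS) and of 1.59 and 1.39 for p42. The partner bins 80, 85, 100 and 105 kb upstream were higher in every list, and those 115 to 130 kb upstream were lower. The bin at 85 kb had 2.26, 1.67, 3.81 and 2.59, and the bin at 80 kb 1.87, 1.51, 3.32 and 2.25. Here p42 was above p30 under both treatments, and the LPS list was below the UT list in both lines. The bin at 105 kb, with 1.81, 1.92, 2.38 and 2.09, varied less. The bin just upstream of the start-site bin, too near to form a loop, had 1.36, 1.32, 2.85 and 1.75.

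In untreated cells the p42 over p30 fold was above 1 at all 20 Fos partner bins, with a median of 1.33 and a range of 1.11 to 1.84, where the median of all peak bins was 0.977. Past 1.5-fold were 6 of the 20, at 10, 80, 85, 90, 95 and 100 kb, against 4.78% of peak bins, and none was as far below 1 (3.43%). The 8 partner bins whose loop was in all 4 lists lay between 1.24 and 1.84. At 80 kb the fold was 1.77, and 1.87% of peak bins had at least this fold. After LPS the fold ranged from 1.00 to 1.55 over 19 bins, with a median of 1.22, and 2 were past 1.5-fold (3.87% of peak bins) with none as far below 1 (2.88%). These 2, at 85 and 90 kb, were past 1.5-fold under both treatments, as were 2.1% of peak bins. With scaling by modelled contacts 12 of 20 were past it in untreated cells and 0 of 19 after LPS, so that call ended. This scaling moved the median of all peak bins after LPS by -0.33 on the log2 scale. It turned the Fos median with it, to -0.05, while in untreated cells it raised it from 0.41 to 0.60. Neighbouring bins share fragments and are not independent.

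LPS went with little change in the p30 coverage of the Fos partners, with a median fold of 1.01 over 19 bins (range 0.738 to 1.21). In p42 the median was 0.848 (0.678 to 1.09), and no bin passed 1.5-fold in either line, where 2.28% of peak bins were higher and 0.865% lower with LPS in p30, and 1.58% higher and 1.16% lower in p42. With scaling by modelled contacts, which moved the median of all peak bins in p42 as well, 9 of the 19 bins were past 1.5-fold lower there and the Fos median log2 fold went from -0.24 to -0.56. The bins 80 and 85 kb upstream had the lowest folds in p42, 0.678 and 0.679.

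The partner bins of Fos were also joined to each other, by 54 and 53 loops in the p30 lists and by 105 and 58 in the p42 lists (UT and LPS). The whole lists held 80489 and 94609 loops for p30 and 158233 and 78591 for p42, so the higher number in p42 UT stands beside a longer list. Among the bins 80 to 100 kb upstream there were 3, 4, 6 and 4 of these loops, with 147, 202, 518 and 232 contacts.

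**Figure D3:**
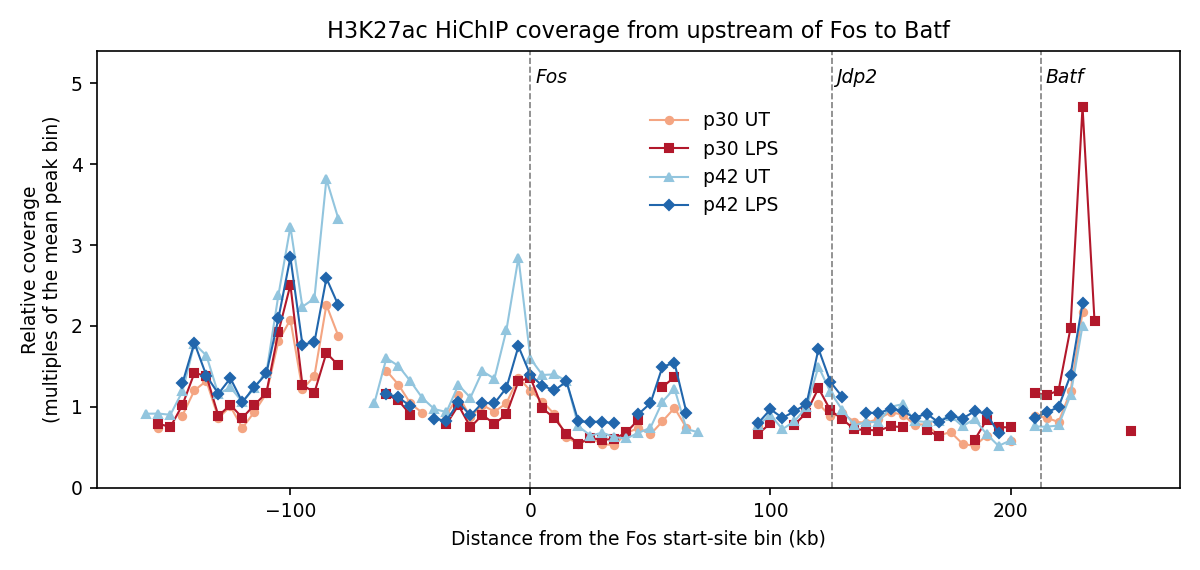
Relative coverage (vertical axis, multiples of the mean peak bin) along chromosome 12 by distance in kb from the Fos start-site bin, with 1 line per list, the start sites of Fos, Jdp2 and Batf dashed, and gaps where a bin is in no loop of that list. The p42 UT line is highest 80 to 105 kb upstream of Fos, up to 3.81, and the p30 LPS line reaches 4.71 inside Batf, where the other lists have 2.00 to 2.28.

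Batf lies 213 kb beyond Fos on the same chromosome, at chr12:85733423-85755861 on the plus strand, with Jdp2, which encodes a zipper protein that represses AP-1, between them. Fos and Batf shared no partner bin in any list, neither with identical bins, nor with 1 bin of slack, nor in lists of equal size. No loop joined their start sites. Of the 20 partner bins of Fos 19 lay on the side away from Batf, and those of Batf lay mostly inside Batf. The nearest approach was a loop of Batf to a bin 190 kb upstream in p42 UT, with 8 contacts, which lies 20 kb downstream of the Fos start-site bin and is no partner of Fos.
Jdp2 had 4 and 5 loops for p30 (UT and LPS) and 14 and 9 for p42. It shared 1 partner with Fos in p42 UT, the bin of the Nek9 start site, and none in the other lists. In lists of equal size Jdp2 had 4, 5, 4 and 9 loops and shared no partner with Fos in any list. Jdp2 and Batf shared 0 in every list. The bin 190 kb upstream of Batf was a partner of Jdp2 in p30 UT.

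Batf was joined mostly to bins within its own gene body. The loop 20 kb downstream, inside an intron, was in all 4 lists, with 25 and 49 contacts for p30 (UT and LPS) and 36 and 33 for p42. The relative coverage of that bin was 2.17 and 4.71 for p30 and 2.00 and 2.28 for p42. The p30 LPS list thus stood apart from 3 lists with nearly the same level. The LPS fold was 2.17 in p30, and 0.128% of 31321 peak bins had at least this fold. In p42 it was 1.14. The fold in p30 was 1.91 times that in p42, and 3.68% of peak bins had a ratio past 1.5. This difference was not tested against a replicate spread.
The bins beside it followed. The bin 15 kb downstream had 1.19, 1.97, 1.14 and 1.39, and the bin 25 kb downstream was listed in p30 LPS alone, with 21 contacts and a relative coverage of 2.06. Of the 4 partner bins of Batf with coverage in both p30 lists, 2 were past 1.5-fold higher after LPS, against 2.28% of peak bins. The start-site bin of Batf moved less, with 0.89, 1.18, 0.76 and 0.86. After LPS the bin 20 kb downstream in p42 was 0.484 times that in p30, 1 of 5 partner bins past 1.5-fold lower (2.88% of peak bins), and 4 of 5 were with scaling by modelled contacts. The bin 190 kb upstream was past 1.5-fold higher in p42 (1.504-fold, against 3.87% of peak bins), a call that both other scalings ended.

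Batf3, at chr1:190830044-190841142, had loops after LPS only. It is 1 of the 0.457% of genes with a loop in both LPS lists and in neither UT list. In p30 LPS it had 1 loop, to a bin 175 kb downstream, with 11 contacts where 1.65 were expected. In p42 LPS it had 3, to bins 175, 180 and 190 kb downstream, with 10, 13 and 10 contacts. The partner bins lie over the non-coding genes D730003I15Rik and Gm70861. They were covered in all 4 lists. The bin at 175 kb had an LPS fold of 1.06 in p30 and 1.11 in p42, and a p42 over p30 fold of 1.46 in UT and 1.52 after LPS. After LPS it was the 1 of 3 partner bins past 1.5-fold higher in p42 (3.87% of peak bins), a call that scaling by modelled contacts ended. The start-site bin was in the LPS lists alone, with a relative coverage of 0.62 in p30 and 0.93 in p42, so its level in untreated cells is not known. Atf3, a stress-induced zipper factor whose start site lies between Batf3 and these bins, shared 1 of them with Batf3 in p42 LPS and 0 in the other lists.

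Fosl2, at chr5:32292707-32315186, had the longest loops of the family, up to 570 kb upstream over Babam2 and toward Rbks and Mrpl33. The loop 435 kb upstream, to the bin of the Babam2 start site, was in all 4 lists, with 13, 10, 15 and 8 contacts where about 1.18 to 1.23 were expected. Babam2 encodes a subunit of the BRCA1-A complex. The bin 60 kb downstream, which holds no annotated gene, had no listed loop in p30 UT and 23, 17 and 30 contacts in the other lists. In p30 UT this pair would have been listed from 10 contacts on. Its relative coverage was 0.75, 1.12, 1.12 and 1.65, lowest in p30 UT and highest in p42 LPS. The LPS fold was 1.499 in p30 and 1.48 in p42, just short of 1.5. Of the 11 Fosl2 loops in p42 UT, 7 were in that list alone, and 4 of the 11 were left in lists of equal size.
The start-site bin of Fosl2 had a relative coverage of 0.93, 1.14, 1.39 and 1.36. In untreated cells p42 was 1.503 times p30 (95% interval 1.43 to 1.58), so that Fosl2 was the 1 member of 5 past 1.5-fold, against 3.72% of start-site bins. This value lies at the limit, and scaling by the median peak bin ended the call. Of its 8 partner bins 2 were past 1.5-fold in the same direction (4.78% of peak bins), and 5 were with scaling by modelled contacts. The 2 lay near Mrpl33 (535 kb, 1.80) and at the Rbks start site (440 kb, 1.60). Both were partners through the p42 UT list alone, so the way they were found favours a high p42 value. All peak bins did not pass that filter. The partner bin at 435 kb, whose loop was in all 4 lists, had a fold of 1.41.

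Fosb, at chr7:19036621-19043976 on the minus strand, was joined to bins within 85 kb. They hold Ercc1, a DNA repair nuclease subunit, Vasp, an actin regulator, and Opa3, and the start sites of Polr1g and Ppp1r13l. The loop to Ercc1, 35 kb upstream, had 18 and 34 contacts for p30 (UT and LPS) and 39 and 27 for p42. The untreated p30 list was lowest. The relative coverage of the partner bin was level, at 0.95, 1.01, 1.01 and 1.06. In p30 the LPS list held 65.4% of the contacts of both lists (51.8 to 76.8), against 44.7% of modelled contacts (adjusted p = 0.0680 by the exact binomial test). The start-site bin of Fosb had 1.23, 1.61, 1.42 and 1.21, highest in p30 LPS. After LPS p42 was 0.750 times p30 (0.712 to 0.790).

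Fosl1, at chr19:5497575-5505974, varied least in start-site coverage among the 5 members with values in all 4 lists. Its relative coverage there was 0.91, 0.85, 0.88 and 0.99. Its loop 15 kb upstream was in all 4 lists, with 34, 28, 54 and 34 contacts, where 9.53 to 13.3 were expected. Partner bins held the start sites of Sart1, Drap1, Ccdc85b and Mus81. None of its 7 partner bins passed 1.5-fold in untreated cells. After LPS the bin of the Mus81 start site, 40 kb downstream, was 0.620 times as high in p42 as in p30, 1 of 7 past 1.5-fold lower (2.88% of peak bins). Mus81 encodes a DNA repair nuclease.

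**Figure D4:**
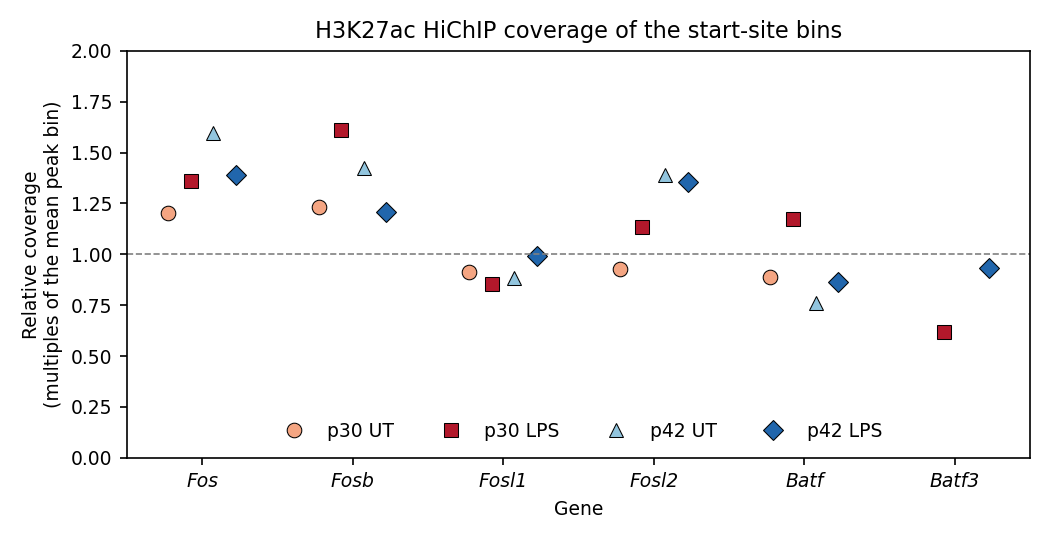
Relative coverage of the start-site bin of each gene (vertical axis, multiples of the mean peak bin, dashed line at 1) in the 4 lists, 1 symbol per list. Fos and Fosl2 are lowest in p30 UT and highest in p42 UT, Fosb and Batf are highest in p30 LPS, and Batf3 has values in the LPS lists alone.

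Over the 4 comparisons start-site coverage passed 1.5-fold at 2 points. Besides Fosl2 this was Batf3 after LPS, with 1.503 in p42 against p30 (1.40 to 1.61), 1 member of 6, against 1.79% of start-site bins. This call was lost with scaling by the median peak bin (log2 fold 0.58, just short of the limit) and by modelled contacts (0.25). No member passed 1.5-fold with LPS, where 1.92% of start-site bins were higher and 0.36% lower in p30, and 0.743% higher and 1.09% lower in p42. With scaling by modelled contacts Fosb and Batf did in p30, with log2 folds of 0.59 and 0.61. Nor was any member 1.5-fold lower in p42 than in p30 (1.43% of start-site bins in UT and 3.72% after LPS). With that scaling Fosb and Batf were, after LPS, with log2 folds of -0.75 and -0.78. Signs of small differences hung on the scale. Scaling by modelled contacts turned the sign for Fos, Fosl1 and Fosl2 in p42 against p30 after LPS. It also turned it for Fosl1 in the other 3 comparisons and for Batf in LPS against UT in p42.

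**Figure D5:**
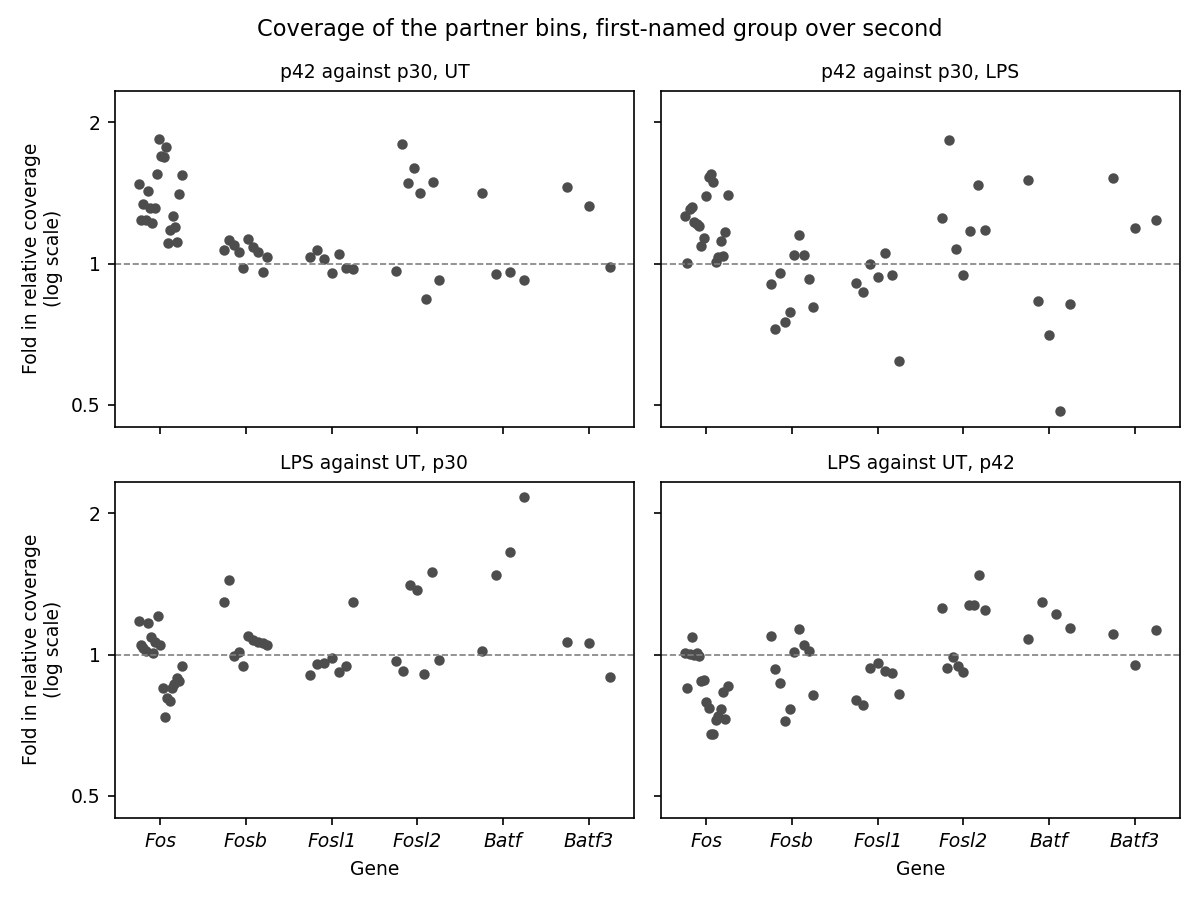
Fold in relative coverage of the partner bins (vertical axis, log scale, dashed line at 1) for each gene in the 4 comparisons, first-named group over the second, 1 point per bin covered in both lists, from left to right along the chromosome. In untreated cells all 20 Fos points lie above 1, and with LPS in p30 the Batf points reach 2.17.

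The start sites whose coverage over the 4 lists was most like that of a member were found by the smallest distance between log2 values centred on their mean, among 6261 to 6319 start sites more than 1 Mb away. For Fos these were Ints6l (distance 0.0104) and Pmvk (0.0150), and for Fosb Ino80 (0.0083) and Hnrnpa3 (0.0180). For Fosl1 they were C1qtnf9 and Stpg4, for Fosl2 Rbm17, and for Batf Pdcd1lg2 and Rnf157, at 0.0274 to 0.0437. With 4 points per gene such likeness is a description only. Batf3 lacks coverage in 2 lists and was not ranked.

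Of 11 other AP-1 and partner genes (Jun, Junb, Jund, Jdp2, Batf2, Atf2, Atf3, Atf4, Atf7, Irf4 and Irf8), 8 had loops. Batf2, the BATF family gene that is not a member, had none, nor had Irf4 and Irf8, whose products bind DNA with BATF. In untreated cells p42 exceeded p30 for all 8, where it did for 79% of genes. In lists of equal size 3 had more (38.3% of genes) and 1 had fewer (34.6%). Jun, the main partner of FOS, had 3 and 3 loops for p30 (UT and LPS) and 9 and 6 for p42 (3, 3, 6 and 6 in lists of equal size), with a relative coverage of 0.91, 0.97, 1.03 and 0.98. Start-site coverage of these genes passed 1.5-fold in none of the 4 comparisons.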

How the data were processed

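The authors mapped HiChIP reads to mm39 with BWA-MEM (0.7.17 in the submitters' processing notes), recorded and de-duplicated ligation pairs with pairtools, and called interactions with FitHiChIP at 5 kb and a q-value under 0.01. How replicates were pooled was not stated. Each deposited list has 26 columns, of which 12 were used. Deposited contacts are raw counts. The deposited expected count is the authors' caller's estimate from distance and coverage, and the deposited probability is the same as a fraction of all modelled contacts. The p-value, its adjusted form (q-value, treated as a score) and the coverage in reads per bin with its bias, a ratio to the mean of bins of the same class, come from the authors as well. As the caller corrects for coverage and lists significant pairs alone, contacts of other pairs are unknown.

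Modelled contacts were the expected count divided by the probability. Partner bins were matched by identical coordinates, and adjusted p below 0.05 or a fold past 1.5 was called. The members, the gene lists and the motifs were chosen with earlier results of these data known, and the bins whose rank among peak bins is given, the sequences shown and the estimate for unlisted pairs were chosen after values were seen. The rule for other named genes took genes with a start site in a partner bin (of which the protein-coding ones are named), the listed AP-1 genes and the 2 start sites most like each member. Other genes lying over partner bins, such as Vasp, were named after values were seen. A start site like a member and a marker gene of another cell type are not reported here. Scripts were tested on simulated data. Python 3.11.15, NumPy 2.4.6, pandas 2.3.3, SciPy 1.17.1 and matplotlib 3.10.9 were used.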

Additional observations from a re-analysis of the deposited data

Results flagged for a closer look

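LPS went with opposite signs in p30 and p42 for 7 values of the FOS genes. Each group is 1 pooled list, so the differences were not tested. For start-site coverage of Fos the log2 of LPS over UT was 0.18 in p30 but -0.20 in p42, which differ by 0.38. For Fosb the values were 0.38 and -0.24, 0.62 apart, and for Fosl2 0.30 and -0.04, 0.33 apart. The Fosl2 fold in p42 was 0.976 (95% interval 0.929 to 1.02), an interval that includes 1. Fosl1 went the other way, with -0.10 and 0.17 (p30 minus p42 -0.27), and scaling by modelled contacts turned both of its signs. That scaling moved the values of Fos (to 0.39 and -0.52), Fosb (to 0.59 and -0.56) and Fosl2 (to 0.50 and -0.36). It also took the median log2 fold of all peak bins to 0.18 in p30 and -0.32 in p42. Over all start sites the median LPS fold was 1.03 in p30 and 0.912 in p42, so start sites in general lay on opposite sides of 1 as well. Fos and Fosb in p42, with folds of 0.872 and 0.848, were near that median.

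Contacts per modelled contact at loops in all 4 lists had the same signs for Fos, with 0.26 for p30 against -0.33 for p42 and 0.58 between them. For Fosb, at 1 loop, they gave 1.23 and -0.27, which are 1.49 apart. For Fosl1, at 1 loop, they gave 0.03 and -0.40, which are 0.43 apart. The 95% interval included the modelled share for Fos in p30, for Fosb in p42 and for Fosl1 in both lines. With null shares from the expected counts the Fos value in p30 was 0.05. Of all loops present in every list 3.89% were called higher and 0.0387% lower with LPS in p30, against 0.087% and 3.58% in p42.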

How the results depend on the processing

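Of 284 values recomputed under an alternative, 208 kept their direction and their side of the limit (counts: within 1.5 times; medians of log2 folds: within 0.1), 9 fell below and 8 rose past their limit, 49 moved and 10 single-gene values turned sign. Some of the medians over partner bins that moved also changed sign with scaling by modelled contacts, such as those of Fos, Fosl2 and Batf3 for p42 against p30 after LPS. With a window of 3 bins the loops of all 6 genes were 55 and 64 for p30 (UT and LPS) and 122 and 81 for p42. With null shares from expected counts, loops called fell from 2 to 0 for p42 against p30 in UT and from 1 to 0 for LPS in p30, and the Batf log2 ratio for LPS in p42 turned to -0.0019. With loops in both lists, Fosl2 turned to 0.077 for p42 against p30 after LPS and to 0.46 for LPS in p42. Scaled by the median peak bin, 0 genes passed 1.5-fold in start-site coverage for p42 against p30 in UT and 0 after LPS. Scaled by modelled contacts, 2 did in UT (Fos and Fosl2, higher in p42), 2 after LPS (Fosb and Batf, lower in p42) and 2 for LPS in p30 (Fosb and Batf, higher). That scaling turned Fosl1 to 0.15 (p42 against p30, UT), -0.12 (LPS), 0.11 (LPS in p30) and -0.15 (LPS in p42), Fos to -0.30 and Fosl2 to -0.077 (p42 against p30, LPS), and Batf to -0.14 (LPS in p42). It took the median log2 fold of all peak bins from -0.033 to 0.16 in UT, from 0.00 to -0.33 after LPS, from -0.022 to 0.18 for LPS in p30 and from 0.0051 to -0.32 for LPS in p42. The cause was not tested. Scalings of partner bins were added after the data were seen. Fos and Batf shared 0 partners under every setting.

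No paired analysis was possible because each list pools both replicates, and for the same reason no replicate was left out. Contacts of 7 to 73 per loop limit single loops to large differences.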
